A study of Mus musculus with 6 samples.

Results

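Ion channel genes were followed in the epididymal white adipose tissue of mice with Cnot3 deleted in fat. The set was chosen by gene name: symbols that begin with the stems of the potassium (Kcn), sodium (Scn), calcium (Cacn), transient receptor potential (Trpa, Trpc, Trpm, Trpv), chloride (Clcn) and pacemaker (Hcn) channel families. Kcnk3 and Kcnj8 fit these stems but were left out of the set. The name rule took 133 of the 18193 genes that had a probe set naming only them, and 65 of the 133 were bright enough to be tested, among 12769 tested genes in all. Stems followed by a letter, such as Kcnma1 or Scnn1a, fall outside the rule and are described as related genes. It also takes 2 genes that encode no channel subunit: Kcnq1ot1, a long noncoding RNA transcribed antisense to Kcnq1, and Trpc4ap, whose product binds TRPC4 and serves as an adaptor of a ubiquitin ligase.

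The tissue came from 3 wild-type mice (WT) and from 3 mice with Cnot3 deleted in fat by Cre recombinase under the Adiponectin promoter (CNOT3KO), all 8 weeks old and of the C57BL/6 strain. Whether the WT mice carried a floxed Cnot3 allele or the Cre transgene is not given in the sources used here. CNOT3 is a subunit of CCR4-NOT, a deadenylase complex that starts mRNA decay. The promoter is active in adipocytes, so the other cells of the fat pad keep the gene, and the comparison asked which mRNAs of the whole pad differ. Each mouse had 1 Affymetrix array, so 3 arrays a side set how precise any value here can be. Cnot3 itself read 305, 293 and 305 in WT and 194, 229 and 179 in CNOT3KO. The groups did not overlap, and the gene fell (log2 difference -0.54, SE 0.14, limma adjusted p = 0.0131). Whether its probes lie in the deleted part is not given in the sources used here.

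Ion channels are membrane proteins that let ions cross down their gradients. Potassium channels set the resting potential, voltage-gated sodium and calcium channels start electrical and calcium signals, and TRP channels are cation pores opened by lipids, stretch, heat or chemical ligands. ClC proteins are chloride channels or chloride-proton exchangers of endosomes and lysosomes. In fat tissue such genes come from adipocytes and also from vessel walls, nerves and immune cells, so a change in the whole pad can reflect fewer cells of a type or less RNA per cell, which bulk arrays cannot tell apart.

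The letters of 4 upstream windows are shown because these are the called channel subunits for which 250 bases before the RefSeq transcript start lay outside every annotated gene. Kcna5, Trpv1 and Scn7a fell and Trpv2 read higher in CNOT3KO. The sequences are from RefSeq, build GRCm38.p6, written 5′ to 3′ on the strand of the gene. They lie at chr6:126535556-126535805 (minus strand) for Kcna5, chr11:73233899-73234148 (plus) for Trpv1, chr2:66784911-66785160 (minus) for Scn7a and chr11:62574236-62574485 (plus) for Trpv2. Capitals mark matches to any of 7 motifs searched on both strands.
Kcna5: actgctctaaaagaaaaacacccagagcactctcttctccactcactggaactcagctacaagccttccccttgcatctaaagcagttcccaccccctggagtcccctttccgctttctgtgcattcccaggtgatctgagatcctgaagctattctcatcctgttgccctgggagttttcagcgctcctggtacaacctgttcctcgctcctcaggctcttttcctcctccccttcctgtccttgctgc
Trpv1: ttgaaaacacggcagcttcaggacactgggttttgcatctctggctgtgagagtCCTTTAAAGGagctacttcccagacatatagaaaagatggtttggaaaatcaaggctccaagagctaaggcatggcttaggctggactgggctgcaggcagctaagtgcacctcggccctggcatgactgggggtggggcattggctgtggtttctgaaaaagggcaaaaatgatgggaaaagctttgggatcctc
Scn7a: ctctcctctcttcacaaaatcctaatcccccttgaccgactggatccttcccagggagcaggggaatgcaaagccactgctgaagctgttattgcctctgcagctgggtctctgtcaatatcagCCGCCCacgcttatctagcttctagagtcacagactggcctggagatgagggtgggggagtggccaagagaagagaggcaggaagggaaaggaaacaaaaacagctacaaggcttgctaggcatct
Trpv2: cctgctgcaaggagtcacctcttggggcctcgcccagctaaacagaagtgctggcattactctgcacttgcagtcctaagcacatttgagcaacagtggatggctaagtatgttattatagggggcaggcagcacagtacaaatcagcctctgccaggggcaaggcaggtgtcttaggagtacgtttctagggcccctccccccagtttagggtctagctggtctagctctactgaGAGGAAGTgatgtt

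The 7 motifs were the TATA box (TATAAA), the E-box (CACGTG), the GC box (GGGCGG), the AP-1 site (TGANTCA), the cyclic AMP response element (TGACGTCA), the PU.1 site (GAGGAAGT) and the CArG box, and none of them contains another. The Trpv1 window held 1 CArG box, a motif of smooth muscle genes that 1.47% of all 32851 windows held. The Trpv2 window held 1 PU.1 site, a motif of myeloid genes present in 2.44% of all windows. The Scn7a window held 1 GC box (32.7% of all windows), and the Kcna5 window matched none of the 7. TATA boxes, E-boxes, AP-1 sites and cyclic AMP response elements were in 12.4%, 6.02%, 6.75% and 1.55% of all windows and in none of these 4. The arrays measured RNA and not binding, so a match is a description of letters only.

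Of the channel genes 9 were called higher and 12 lower in CNOT3KO. The test was limma on log2(signal + 22.5), and a gene was called when its adjusted p over all tested genes was under 0.05. Folds and fractions of WT are on that scale and are not ratios of the mean signals. Of 65 tested channel genes 21 were called (32.3%), against 40.1% of all tested genes. Higher in CNOT3KO were 9 (13.8%), against 23.2% of all, and lower were 12 (18.5%), against 16.9%. All 3 CNOT3KO arrays lay on one side of all 3 WT arrays in 23 of 65 channel genes (35.4%), against 51.7% of all tested genes. The median log2 difference was -0.11 for channel genes and 0.02 for all. Typical channel genes were dim, with a median signal of 117 over the tested ones, and their median standard error was 0.23 against 0.15 for all tested genes. The order of the shares turned with the filter: with the filter at the 60th percentile of mean signal, which leaves 23 channel genes, 13 were called (56.5%), against 46% of all genes tested there. The share called is therefore no result about channels, and the shares by family given below are not read as results either. With each array centred on its median gene, 6 were higher and 16 lower, so 27.3% of the calls were rises, against 42.9% as given. For all tested genes that share went from 57.8% to 45.3%. Without CNOT3KO mouse 1 the 9 higher genes became 5.

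**Figure D1:**
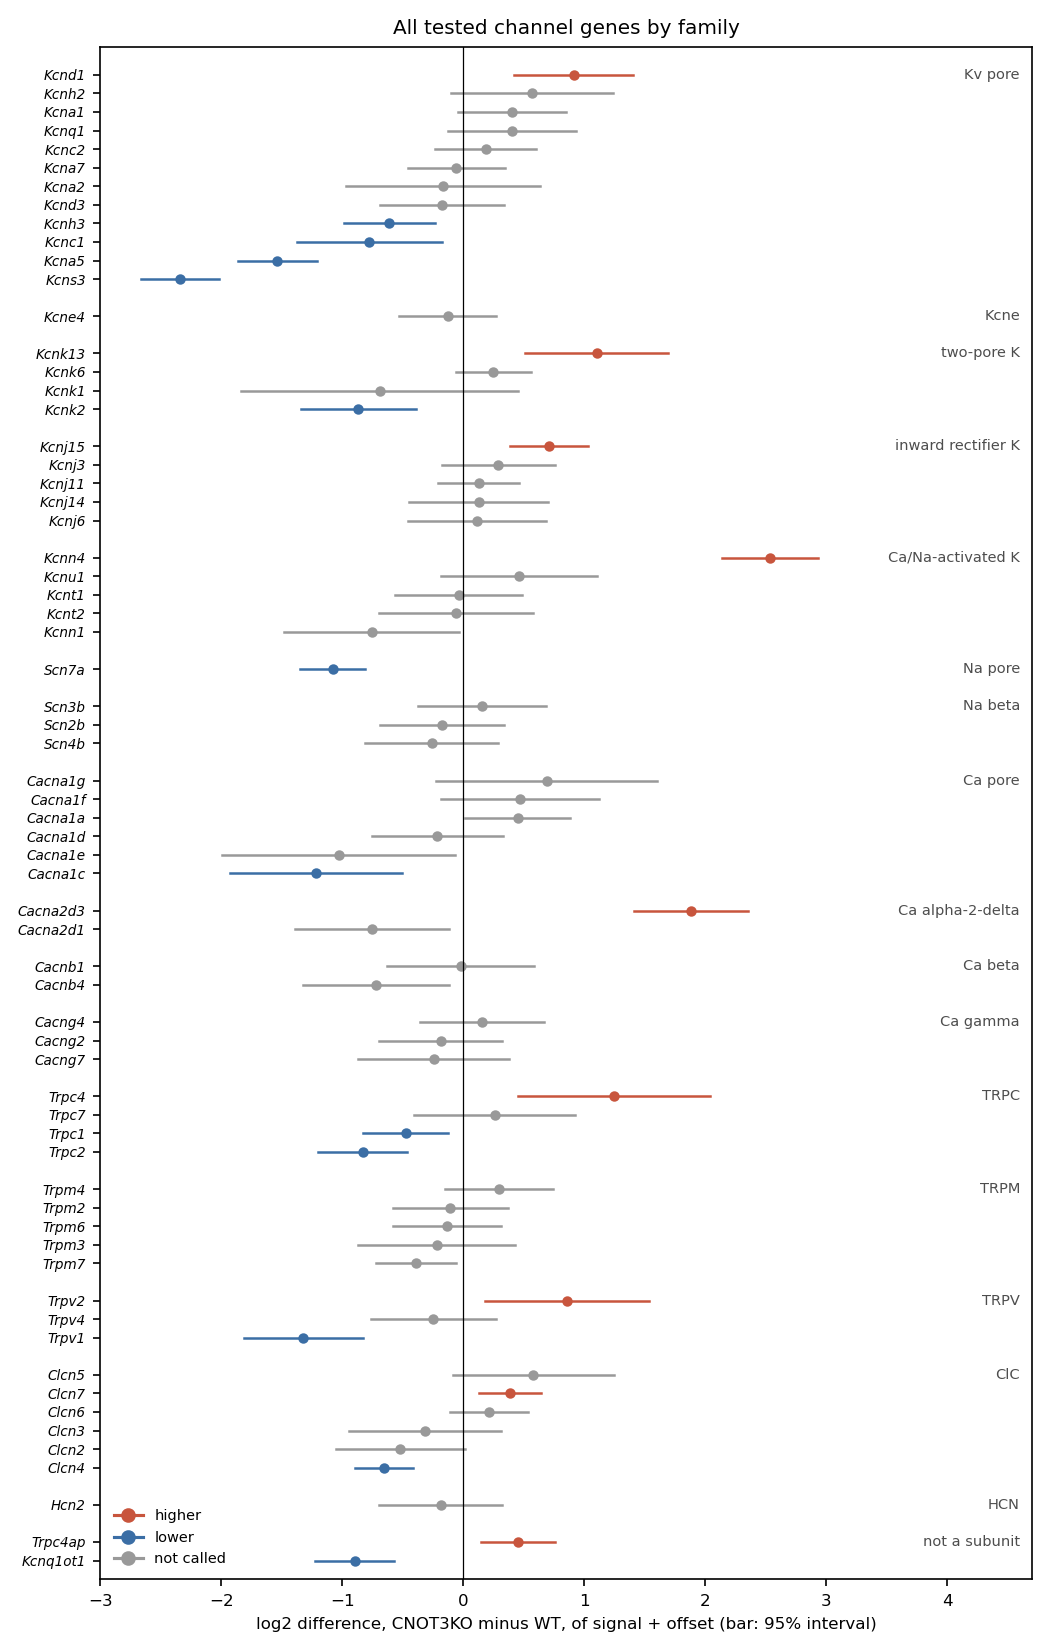
All 65 tested channel genes, grouped by family. The horizontal axis is the log2 difference of signal + offset, CNOT3KO minus WT, points are estimates and bars 95% intervals of the limma fit, with 3 mice per group. Kcns3 at -2.34 and Kcnn4 at 2.54 are the ends of the range, and most intervals in grey span 0.

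Voltage-gated potassium channels held the largest fall. Of 31 pore-forming genes 12 were tested, and 4 fell, 1 rose and 7 were not called. The share called was 41.7%, near the 40.1% of all tested genes. Kcns3 encodes Kv9.3, a silent subunit that joins Kv2 channels and alters their gating. It read 894, 1032 and 1148 in WT and 157, 195 and 199 in CNOT3KO. Every CNOT3KO array lay far below every WT array, and the mean went from 1024 ± 127 to 184 ± 23.4 (SD, n = 3 each), or 0.197 of WT (log2 difference -2.34, SE 0.14, limma adjusted p = 1.06e-05). Its other probe set read 415, 617 and 642 in WT and 185, 165 and 137 in CNOT3KO and fell by 1.63 on the log2 scale.

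Kcna5 encodes Kv1.5, a delayed rectifier known from vascular smooth muscle and atrial myocytes. It read 873, 728 and 637 in WT and 248, 257 and 217 in CNOT3KO. The groups were well apart, and the signal fell to 0.345 of WT (log2 difference -1.54, SE 0.15, limma adjusted p = 6.71e-05). Kcna1, its nearest coding neighbour in the genome, read 98.7, 68.6 and 87.0 in WT and 123, 136 and 98.5 in CNOT3KO. These groups overlapped slightly and Kcna1 was not called (log2 difference 0.40, SE 0.20, limma adjusted p = 0.138), except with array weights.

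The remaining calls of this family were smaller. Kcnd1, which encodes the A-type channel Kv4.1, read 112, 76.3 and 88.4 in WT and 201, 246 and 142 in CNOT3KO. Its groups did not overlap and it rose 1.88-fold (log2 difference 0.91, SE 0.22, limma adjusted p = 0.00907), although another tested probe set of the gene read -0.04 on the log2 scale and the mean of all its probe sets 0.31, neither called. Kcnc1, the fast Kv3.1 channel, read 109.9, 107 and 56.8 in WT and 30.9, 43.5 and 54.2 in CNOT3KO, and Kcnh3, an ether-a-go-go-like channel, 333, 233 and 288 in WT and 158, 175 and 199 in CNOT3KO. Both had groups apart by narrow margins. Kcnc1 fell to 0.584 of WT (log2 difference -0.78, SE 0.27, limma adjusted p = 0.0435), a call that did not survive leaving out WT mouse 1 (-0.65), WT mouse 2 (-0.66), CNOT3KO mouse 1 (-0.64) or CNOT3KO mouse 2 (-0.79). Kcnh3 fell to 0.654 (log2 difference -0.61, SE 0.17, limma adjusted p = 0.0163), no longer called when WT mouse 1 (-0.50) or CNOT3KO mouse 1 (-0.54) was left out, and its probe sets disagreed: another was called at -0.59, while one more read 0.30 and was not called. Kcnh2, the hERG channel, read 251, 167 and 81.6 in WT and 223, 234 and 256 in CNOT3KO. Only WT mouse 3 was far below the rest, and the difference of 0.57 had a 95% interval from -0.10 to 1.24. Leaving out WT mouse 1 made Kcnh2 a call, higher in CNOT3KO. The other uncalled members, Kcna2, Kcna7, Kcnc2, Kcnd3 and Kcnq1, had log2 differences between -0.18 and 0.40. The ancillary subunit Kcne4 was the only tested Kcne gene of 5 and read 234, 333 and 379 in WT and 273, 265 and 306 in CNOT3KO, with overlapping groups (log2 -0.13, 95% interval -0.53 to 0.27).

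**Figure D2:**
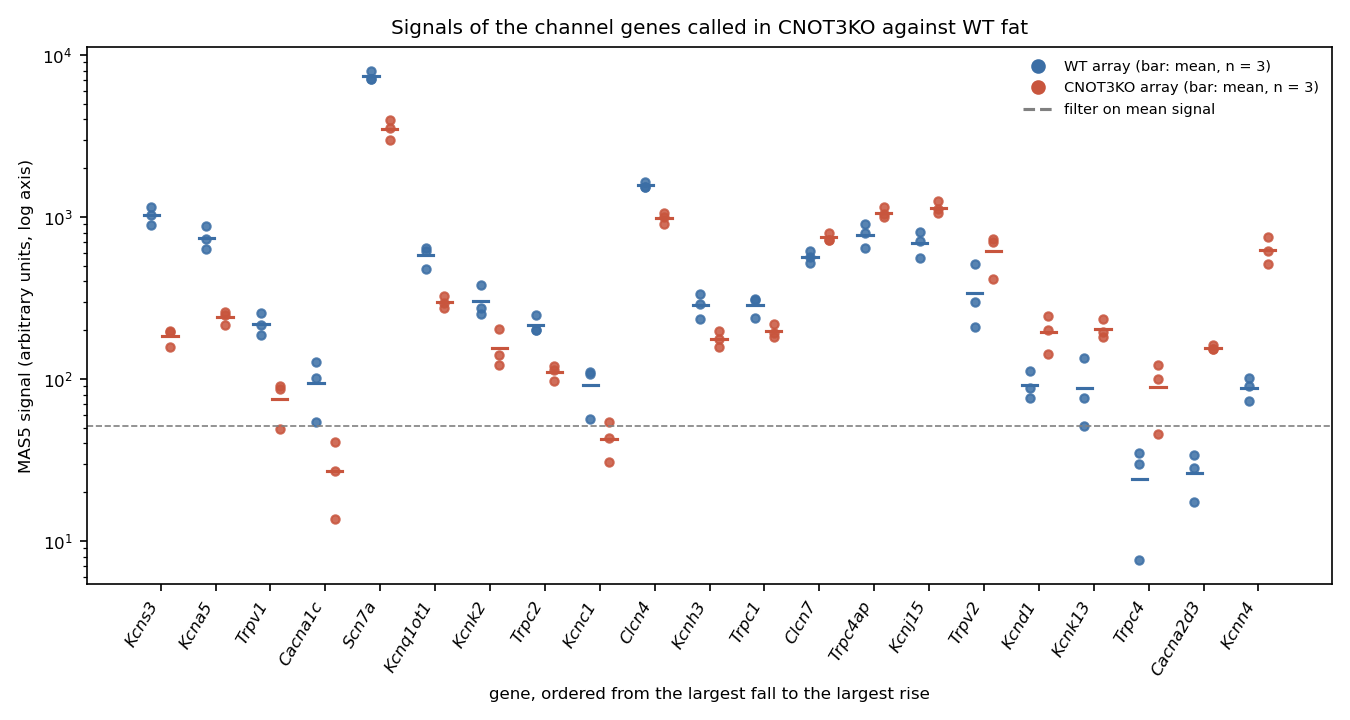
Signals of the 21 called channel genes on every array, on a log axis, with a bar at each group mean (n = 3) and a dashed line at the filter of 51.6 on the mean signal. Groups are apart in 20 of the 21 genes, and Trpv2 is the one whose groups overlap. Of all 5115 called genes only 103 overlap, so groups apart are the rule among called genes.

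Among calcium- and sodium-activated potassium channels 1 of 5 tested genes, Kcnn4, rose (20%, against 23.2% of all tested genes). It encodes KCa3.1, the intermediate-conductance channel known from macrophages, lymphocytes and red cells. The probe set read 102, 72.8 and 90.4 in WT and 613, 749 and 509 in CNOT3KO. No CNOT3KO array came near the WT range, and the mean went from 88.3 ± 14.5 to 624 ± 120.3 (SD, n = 3 each), a 5.80-fold rise (log2 difference 2.54, SE 0.18, limma adjusted p = 1.73e-05). The second probe set rose by 2.33 on the log2 scale and read 29.0, 29.7 and 92.2 in WT and 298, 389 and 274 in CNOT3KO. Kcnn1, of the small-conductance channels, read 118, 91.9 and 68.7 in WT and 73.2, 53.0 and 19.2 in CNOT3KO, with a difference of -0.76 that was called with arrays centred on the median, with the replicate block or without CNOT3KO mouse 1. The genes Kcnt1, Kcnt2 and Kcnu1 were not called, with log2 differences between -0.06 and 0.46.

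Tandem-pore potassium channels carry leak currents, and their tested genes went both ways. Kcnk2, the stretch- and lipid-sensitive TREK-1, read 380.2, 272 and 253 in WT and 141, 204 and 123 in CNOT3KO. All CNOT3KO arrays were below the lowest WT array, and the gene fell to 0.547 of WT (log2 difference -0.87, SE 0.21, limma adjusted p = 0.00957). Kcnk13, which encodes THIK-1, a channel known from microglia, read 51.4, 76.8 and 136 in WT and 182, 233 and 196 in CNOT3KO. Every CNOT3KO array was above the highest WT array, and it rose 2.14-fold (log2 difference 1.10, SE 0.26, limma adjusted p = 0.00899), by 0.71 with the mean of its probe sets. Kcnk6, or TWIK-2, read 609, 635 and 746 in WT and 821, 890.1 and 672 in CNOT3KO with overlapping groups and was not called (log2 difference 0.25, SE 0.14, limma adjusted p = 0.184), except with array weights (log2 0.31). Kcnk1 varied too widely among mice to place, between 32.8 and 113 in WT and between 4.82 and 94.96 in CNOT3KO.

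Inward rectifiers held 1 call among 5 tested genes of 14 (20% of those tested, against 40.1% of all tested genes). Kcnj15, which encodes Kir4.2, read 807, 715 and 561 in WT and 1112, 1249 and 1057 in CNOT3KO. The groups were apart, and it rose 1.63-fold (log2 difference 0.71, SE 0.15, limma adjusted p = 0.00402), and its other probe sets rose by 0.77 and 0.72. Kcnj6, its neighbour in the genome, read 88.1, 75.6 and 48.7 in WT and 101, 78.1 and 55.9 in CNOT3KO and was not called (log2 0.11, 95% interval -0.46 to 0.68). Kcnj11 encodes Kir6.2, a pore of the ATP-sensitive potassium channel. It read 321, 281 and 272 in WT and 311, 376 and 279 in CNOT3KO, with overlapping groups and a log2 difference of 0.13 (95% interval -0.21 to 0.46). Kcnj3 and Kcnj14 were not called either, at 0.29 and 0.12. The vascular pore of that channel type, Kir6.1, is encoded by Kcnj8, which fits the name rule but was left out of the set. Kcnj8 fell from 992 ± 67.7 to 386 ± 51.3 (SD, n = 3 each, log2 difference -1.32, SE 0.13, limma adjusted p = 8.72e-05). Abcc9, the regulatory subunit SUR2 that partners Kir6.1 in vessels, fell from 1996 ± 199 to 808 ± 125 (SD, n = 3 each, log2 difference -1.29, SE 0.14, limma adjusted p = 0.000119). Of 11 tested smooth muscle and pericyte markers 5 fell (Rgs5 by 1.29, Acta2, Myh11, Notch3 and Smtn) and 3 rose (Cspg4 by 1.03, Des and Mylk), while Tagln, Pdgfrb and Mcam were not called. These are 45.5% and 27.3%, against 16.9% lower and 23.2% higher of all tested genes. The part of these cells in the falls of Kcnj8 and Abcc9 was not tested.

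The sodium channel with the highest signal of all channel probe sets, Scn7a, fell. Signals of different probe sets do not rank genes by mRNA level. Scn7a encodes Nax, a relative of the voltage-gated sodium channels that responds to extracellular sodium and is known from glia and Schwann cells. It read 7108, 7902 and 7112 in WT and 3541, 3962 and 2972 in CNOT3KO. The groups were tightly spaced and far apart, with a fall from 7374 ± 458 to 3492 ± 497 (SD, n = 3 each), or 0.472 of WT (log2 difference -1.08, SE 0.12, limma adjusted p = 0.000157). Its other probe sets fell by 1.01 and 1.09 on the log2 scale. Of the nerve and glia markers 1 rose and 1 fell among 8 tested (12.5% each, against 23.2% and 16.9% of all tested genes). Their summed signal ran from 1379 to 1515 in WT and from 1428 to 1597 in CNOT3KO, sums that overlapped. Their part in the fall of Scn7a was not tested. The other 7 pore-forming sodium channel genes of the set were too dim to be tested, Scn1a, Scn2a, Scn3a and Scn9a of the same genomic cluster among them. The ancillary beta subunits Scn2b, Scn3b and Scn4b were not called, with log2 differences between -0.26 and 0.15, and Scn3b, the brightest, read 154, 238 and 269 in WT and 188, 325 and 230.4 in CNOT3KO.

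Voltage-gated calcium channels held 2 calls among 13 tested genes (15.4%, against 40.1% of all tested genes). Cacna2d3, an alpha-2-delta subunit that brings pores to the membrane, read 28.0, 33.8 and 17.4 in WT and 161, 153 and 154 in CNOT3KO. The WT values were in the range of untested genes, and all CNOT3KO arrays were far above them. The log2 difference was 1.88 (SE 0.21, limma adjusted p = 0.000157), or 1.09 with an offset as large as the median signal. Cacna1c, the L-type pore Cav1.2 of smooth and heart muscle, read 54.1, 101 and 128 in WT and 27.0, 13.6 and 40.6 in CNOT3KO. Its groups did not overlap and it fell (log2 difference -1.22, SE 0.32, limma adjusted p = 0.0129), by 0.65 with the larger, median-sized offset, and with the mean of its probe sets the difference was -0.62 and not called.

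Several uncalled calcium channel genes had wide intervals. Cacna2d1, the alpha-2-delta subunit bound by gabapentin, read 286, 425 and 612 in WT and 250.3, 330.1 and 167 in CNOT3KO, with overlapping groups (log2 difference -0.76, SE 0.28, limma adjusted p = 0.0582). Its second tested probe set was called lower (-0.92), and so was the gene without WT mouse 1 or CNOT3KO mouse 2. Cacnb4, a beta subunit, read 97.4, 82.8 and 57.4 in WT and 55.3, 39.8 and 24.1 in CNOT3KO, groups apart but not called (log2 difference -0.72, SE 0.27, limma adjusted p = 0.0582). It was called lower on leaving out WT mouse 3 or CNOT3KO mouse 1. Its second tested probe set read -0.14 on the log2 scale, with overlapping groups and no call. Cacna1a, the P/Q-type pore, read 70.4, 61.1 and 51.9 in WT and 91.5, 92.7 and 89.0 in CNOT3KO, also apart and not called (log2 0.45). The fits with array weights and with eBayes without trend did call Cacna1a. Cacna1e ranged from 27.4 to 173 within WT, and its difference of -1.03 had a 95% interval from -1.99 to -0.07. Only the fits with array weights or without WT mouse 1 called it, among those run. Cacna1d, Cacna1f, Cacna1g, Cacnb1 and the gamma subunits Cacng2, Cacng4 and Cacng7 overlapped between groups, with Cacnb1 at 95.4, 47.3 and 56.2 in WT and 59.8, 85.3 and 47.1 in CNOT3KO and Cacng7 at 182, 144 and 97.5 in WT and 137, 69.8 and 144 in CNOT3KO.

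**Figure D3:**
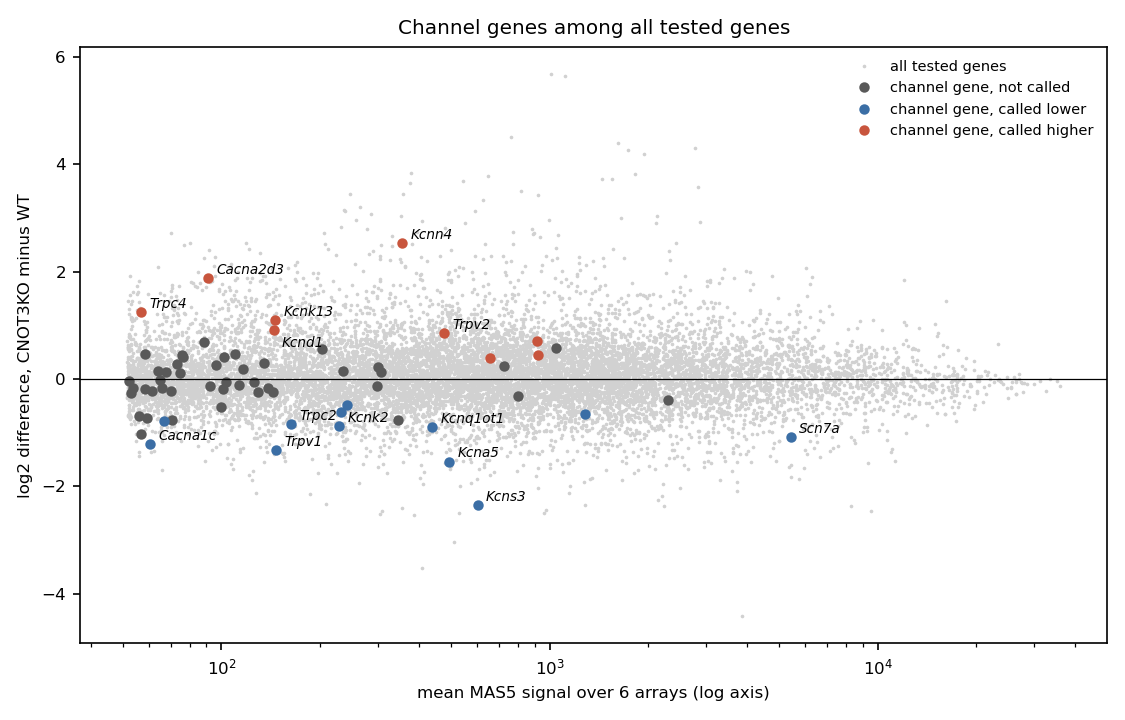
Log2 difference against mean signal (log axis) for all 12769 tested genes in grey and the 65 channel genes in colour, called genes of at least 0.8 either way named. Channel genes crowd at low signal, and Scn7a stands out at a mean of 5433 with a fall of 1.08.

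TRP channels held 5 calls among 12 tested subunits (41.7%), near the 40.1% of all tested genes. Trpv1, the capsaicin and heat receptor of sensory nerves, also known from arteriole muscle, read 216, 254 and 186 in WT and 86.5, 48.9 and 90.5 in CNOT3KO. Each CNOT3KO array was under every WT array, and it fell to 0.40 of WT (log2 difference -1.32, SE 0.22, limma adjusted p = 0.00134). Trpv2, a cation channel known from macrophages, read 209, 298 and 511 in WT and 727, 411 and 699 in CNOT3KO. Here WT mouse 3 lay above CNOT3KO mouse 2, so the groups overlapped, and the 1.81-fold rise (log2 difference 0.86, SE 0.30, limma adjusted p = 0.0461) was no longer called when WT mouse 1 (0.58), WT mouse 2 (0.81), CNOT3KO mouse 1 (0.72) or CNOT3KO mouse 3 (0.74) was dropped. Trpv4, the osmotic and mechanical sensor, read 132, 119 and 231 in WT and 137, 113 and 131 in CNOT3KO and was not called (log2 -0.25, 95% interval -0.77 to 0.27).

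The canonical TRP genes split as well. Trpc2, a pheromone-sensing channel of mice, read 201, 247 and 199 in WT and 114, 121 and 97.6 in CNOT3KO, and Trpc1, a widely expressed subunit, 312, 237 and 305 in WT and 217, 182 and 192 in CNOT3KO. Both groups of arrays were apart. Trpc2 fell to 0.561 of WT (log2 difference -0.83, SE 0.17, limma adjusted p = 0.00344), and its second probe set fell by 0.76. Probe sets that name Trpc2 together with other genes were not used. Trpc1 fell to 0.718 (log2 difference -0.48, SE 0.16, limma adjusted p = 0.0343), a call missing after leaving out WT mouse 1 (-0.41), WT mouse 3 (-0.43) or any CNOT3KO mouse (-0.54 to -0.43). Trpc4, a calcium-permeable pore, read 30.0, 7.65 and 35.1 in WT and 99.5, 122 and 45.9 in CNOT3KO. It was very dim in WT, and its rise (log2 difference 1.24, SE 0.35, limma adjusted p = 0.0196) was 1.97 with an offset of 1 and 0.64 with the median-sized one. Dropping WT mouse 2 (0.95), CNOT3KO mouse 1 (1.15) or CNOT3KO mouse 2 (1.02) ended that call. Trpc7 was not called (log2 0.26).

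None of the 5 tested melastatin TRP genes was called, against 40.1% of all tested genes. Trpm7, a magnesium- and zinc-permeable channel fused to a kinase, read 2999, 2476 and 2359.8 in WT and 1904, 2389.8 and 1680.1 in CNOT3KO. Only CNOT3KO mouse 2 reached into the WT range, and the log2 difference of -0.39 just missed the threshold (adjusted p = 0.0578 by limma). Trpm7 was called lower with arrays centred on the median (-0.49), with the mean of its probe sets (-0.51), with array weights (-0.39) and without CNOT3KO mouse 2 (-0.53). One of its other probe sets was called lower on its own (-0.95). Trpm2, Trpm3, Trpm4 and Trpm6 had log2 differences between -0.22 and 0.29.

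ClC genes split by member. Clcn4, an exchanger of endosomes, read 1539.7, 1650.4 and 1526 in WT and 997, 1064 and 905 in CNOT3KO. The groups were narrow and apart, and it fell to 0.633 of WT (log2 difference -0.66, SE 0.11, limma adjusted p = 0.00112), with a fall of 0.74 in its other probe set. Clcn7, the exchanger of lysosomes, read 617, 563 and 523 in WT and 719, 800.4 and 725 in CNOT3KO. Its groups were apart by a smaller margin, and it rose 1.31-fold (log2 difference 0.39, SE 0.12, limma adjusted p = 0.0245). Its other tested probe sets read 0.43 and -0.05 on the log2 scale, neither called. The call of Clcn7 was lost with arrays centred on the median (0.29) and on leaving out WT mouse 2 (0.38), WT mouse 3 (0.33), CNOT3KO mouse 1 (0.41) or CNOT3KO mouse 2 (0.34). Ostm1, the partner that ClC-7 needs in the lysosome, had a log2 difference of 0.05 and was not called.

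The endosomal exchangers Clcn3 and Clcn5 depended on the probe set. Clcn3 read 1096, 1174 and 488 in WT and 686, 771 and 606 in CNOT3KO and Clcn5 562, 691 and 1319.9 in WT and 883, 1283 and 1558 in CNOT3KO by their brightest probe sets. In both, WT mouse 3 stood apart from the other WT mice, and neither was called (log2 -0.32 and 0.58). Without WT mouse 3 Clcn3 was called lower (-0.71) and Clcn5 higher (0.93). Their brightest probe sets carry the ending x, which marks probes shared with other transcripts. With probe sets ending in x or s left out, Clcn3 was called lower (-0.52) and Clcn5 higher (0.62). Those calls rest on the brightest remaining probe set of each gene. The other Clcn3 probe sets without these endings read -0.01, -0.01 and -0.54, and that of Clcn5 read 0.14, none called. Neither gene was called with the mean of all probe sets. Clcn6 of late endosomes read 277, 277 and 273 in WT and 385, 309 and 285 in CNOT3KO, with the groups just apart and no call (log2 0.22). Clcn6 was called with array weights and with the mean of all probe sets. Clcn2, a plasma membrane chloride channel, read 93.7, 165 and 108 in WT and 62.3, 70.9 and 98.2 in CNOT3KO, overlapping between groups (log2 -0.52, 95% interval -1.06 to 0.01). Array weights made Clcn2 a call.

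Both genes that encode no subunit were called. Kcnq1ot1, which silences neighbouring genes on the paternal chromosome at the imprinted Kcnq1 locus, read 478, 645 and 616 in WT and 326, 294 and 276 in CNOT3KO. All CNOT3KO arrays were below the WT range, and it fell to 0.537 of WT (log2 difference -0.90, SE 0.15, limma adjusted p = 0.00116). Of its 5 tested probe sets 3 were called lower and 2 were not called, and the mean over all its probe sets differed by -0.60. Kcnq1 itself read 64.4, 61.8 and 58.4 in WT and 62.2, 123 and 88.0 in CNOT3KO, with overlapping groups (log2 0.40, 95% interval -0.13 to 0.93). Trpc4ap read 645, 898 and 791 in WT and 1040.2, 998 and 1153 in CNOT3KO, apart between groups, and rose 1.37-fold (log2 difference 0.45, SE 0.14, limma adjusted p = 0.0261). Its call was lost with arrays centred on the median (0.35) and on leaving out WT mouse 1 (0.33), CNOT3KO mouse 1 (0.46) or CNOT3KO mouse 3 (0.39).

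The pacemaker channel Hcn2 was the only tested gene of its family of 2 and read 72.8, 127 and 131 in WT and 98.7, 96.0 and 80.2 in CNOT3KO. Its groups overlapped (log2 -0.19, 95% interval -0.70 to 0.32). Of the 68 untested genes none had a mean signal above 49.1, and their median was 25.1. Trpa1, the irritant receptor and only TRPA gene, was among them at 5.98, 38.6 and 12.9 in WT and 45.8, 5.56 and 43.4 in CNOT3KO. Such values are close to the floor of the arrays, so no direction was read from any of the 68. Of the 65 tested genes 11 passed the filter with 1 group mean below it, the called Cacna1c, Cacna2d3, Kcnc1 and Trpc4 among them.

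Probe sets for the same gene mostly told the same direction where the representative was called. When each of 22861 named probe sets was tested on its own, 35.8% were called. Of the 21 called channel genes 10 had more than 1 tested probe set. In 6 of these (Clcn4, Kcnj15, Kcnn4, Kcns3, Scn7a and Trpc2) every tested probe set was called the same way, and in Kcnd1, Kcnh3, Kcnq1ot1 and Clcn7 only some were. The other 11 rest on 1 tested probe set each. In 0 channel genes were probe sets called in both directions, while 5 uncalled genes (Cacna2d1, Clcn3, Clcn5, Clcn6 and Trpm7) had another probe set that was called.

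**Figure D4:**
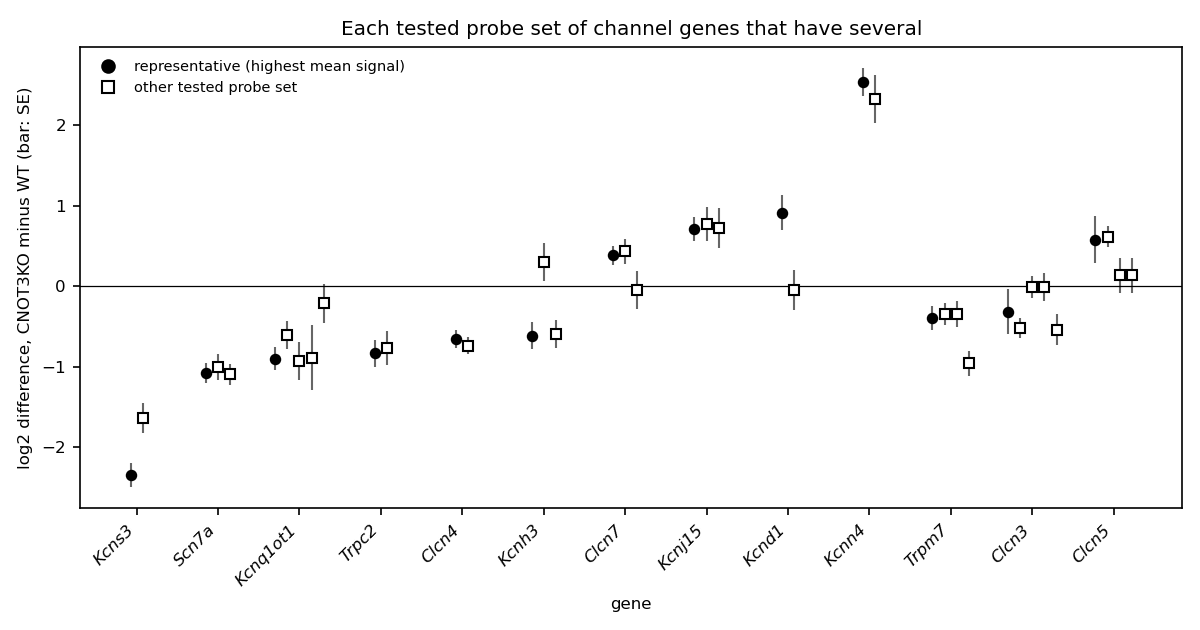
Log2 difference (CNOT3KO minus WT, bar: SE) of each tested probe set for the 10 called channel genes with several and for Trpm7, Clcn3 and Clcn5. Filled circles are the representatives. Squares close to the circle, as in Scn7a and Kcnj15, are probe sets with a like difference, and in Kcnd1, Kcnh3 and Clcn7 a square lies across 0.

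Related channel genes outside the name rule were called at shares of 38.1% (calcium and cation), 43.8% (chloride) and 28.6% (potassium), against 40.1% of all tested genes. The shares called are no result about these classes. Some listed genes encode partners or regulators and not pores, among them Stim1, Gem, Micu2, Ostm1 and Bsnd. Of the 21 tested genes of the calcium and cation list 8, Micu2 among them, rose (38.1%) and 0 fell, against 23.2% and 16.9% of all tested genes. In either direction 12 of the 21 had an unadjusted limma p under 0.05, as did 6206 of all 12769 tested genes. The median log2 difference of the 21 was 0.32. Mcoln2, an endolysosomal cation channel, read 40.1, 56.1 and 61.8 in WT and 255, 218 and 276 in CNOT3KO and rose 3.63-fold (log2 difference 1.86, SE 0.19, limma adjusted p = 9.70e-05). The ATP-gated channel genes P2rx5 and P2rx4 rose 2.63-fold and 2.34-fold, their groups apart (limma adjusted p = 0.00101 and 0.000338). Of the 16 tested genes of the chloride list 1 rose (6.25%) and 6 fell (37.5%), against 23.2% and 16.9% of all tested genes (median -0.10). Clic1 rose 2.12-fold (log2 difference 1.09, SE 0.12, limma adjusted p = 0.00015) and Clic5 fell to 0.368 of WT (log2 difference -1.44, SE 0.14, limma adjusted p = 8.98e-05), both being intracellular chloride channel proteins. Clic6 was called lower at 0.341 of WT, but the size rests on CNOT3KO mouse 3, which read 4.35, and was -0.82 without it against -1.55, and the call was lost without any one of the WT mice. Of 7 related potassium channel genes Kcnab2, a Kv beta subunit, rose 2.03-fold and Abcc9 fell, with a median of -0.31. None of 3 tested epithelial and acid-sensing sodium channel genes was called (limma, 1 at an unadjusted p under 0.05). Kcnk3 fits the name rule but was left out of the set. It went from 277 ± 42.1 to 397 ± 67.7 (SD, n = 3 each, log2 difference 0.48, SE 0.17, limma adjusted p = 0.0439), a call that ended when any WT mouse (0.37 to 0.57), CNOT3KO mouse 2 (0.38) or CNOT3KO mouse 3 (0.45) was dropped.

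Adipocyte markers were bright on every array, and markers of other cell types differed between groups. Adiponectin (Adipoq) read between 21949.6 and 34975 in WT and between 24292 and 32021 in CNOT3KO. Of all tested genes 23.2% rose and 16.9% fell. Of 12 tested adipocyte markers 4 fell (33.3%) and 0 rose. Their summed signal ran from 184993 to 235139 in WT and from 164345 to 198898 in CNOT3KO. Macrophage markers rose in 12 of 14 cases (85.7%), with sums from 28011 to 36724 in WT and from 59905 to 82923 in CNOT3KO. Cd14 and Cd163 were not called. All CNOT3KO arrays of Cd163 lay below its WT arrays (log2 -0.71, limma adjusted p = 0.0657). Endothelial markers fell in 15 of 16 cases (93.8%), with sums from 24467 to 25111 and from 9157 to 10456. Smooth muscle and pericyte markers held 5 falls (45.5%) and 3 rises (27.3%) of 11, with sums from 20769.6 to 28959 and from 18768 to 22973 that overlapped. The part of these cell types in the channel results was not tested.

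The remaining marker lists were mixed, beside 23.2% of all tested genes called higher and 16.9% called lower. Progenitor and fibroblast markers rose in 5 (55.6%) and fell in 1 (11.1%) of 9 cases, with sums from 44115 to 53631 and from 57297 to 66244. Mesothelial markers fell in 4 of 8 (50%). Lymphocyte markers rose in 2 (20%) and fell in 2 (20%) of 10, with sums from 1159.8 to 1715 and from 2025 to 2813. Cd3e, Cd4 and Cd79a were below the filter. Most of the gap between those sums is Il7r, which read between 151 and 224 in WT and between 1094 and 1695 in CNOT3KO. The T cell genes Cd3d, Cd3g, Cd8a and Cd2 were not called, and the B cell genes Cd79b and Ms4a1 fell. Mast cell and neutrophil markers rose in 3 (50%) and fell in 1 (16.7%) of 6. Of 4 tested skeletal muscle markers 1, Myl1, fell (25%), and Myh1, Myh4, Tnni2 and Tnnt3 were below the filter. Of the epididymal epithelium 1 marker was tested and rose, while Adam7, Lcn5, Lcn8 and Lcn9 were below the filter.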

How the data were processed

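RNA of 6 mouse fat pads was measured on 1 Affymetrix array each. The authors deposited linear intensities per probe set. Per the submitters' processing notes these come from MAS5, with settings not given in the sources available. Trimmed means (2% off each end) differ by at most 0.0701%, so the values look scaled to a common level.

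Of 45037 probe sets, 34945 named 1 gene in the platform annotation, 932 several and 9160 none here. The probe set with the highest mean signal stood for its gene. Genes whose mean signal was below 51.6, the 40th percentile, were left untested. The fit was limma (3.58.1, R 4.3.3), lmFit and eBayes with trend, two-sided, on log2(signal + 22.5), where 22.5 is the 25th percentile of the signals. Benjamini-Hochberg adjustment ran over all 12769 tested genes. Folds are on that scale and understate changes of dim genes. No block was used, and scripts were tested on simulated data.

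Named by rule were called channel genes, the 10 with the highest signal, the brightest of each family without a call, Cnot3, Kcnk3, Kcnj8 and up to 3 called genes per related list. Further genes were named after their values were seen. Members and lists (4 of related channels, 11 of cell markers) were chosen with earlier results of these data known. Upstream sequence and genome neighbours came from RefSeq tables of GRCm38.p6. Python 3.11.15 with pandas 2.3.3 and matplotlib 3.10.9 drew the figures.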

Additional observations from a re-analysis of the deposited data

How the results depend on the processing

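Offsets, filters, normalization, the choice of probe set, the variance model, array weights, a block and each array left out were tried. Of the 21 called channel genes 12 kept their call and direction under every alternative in which they were tested (Cacna2d3, Clcn4, Kcna5, Kcnj15, Kcnk13, Kcnk2, Kcnn4, Kcnq1ot1, Kcns3, Scn7a, Trpc2 and Trpv1). No called value of a named gene changed sign, while 11 of 724 alternative values of named genes, all uncalled, did. Higher channel genes numbered 9, between 5 and 9 with each array left out (5 without CNOT3KO mouse 1), and 5 with the filter at the 60th percentile, where 23 channel genes are tested instead of 65 and the share called (56.5%) lies above that of all genes (46%) instead of below it. Lower channel genes numbered 12, between 11 and 13 with each array left out. For all tested genes the counts ran from 2199 to 2676 higher and from 1556 to 1978 lower. Array weights called 28 channel genes (43.1%), with 51.8% of all tested genes called. The mouse number as a replicate block gave 10 higher and 13 lower channel genes, with Kcnc1 lost (limma adjusted p = 0.0715) and Cacnb4, Clcn5 and Kcnn1 gained. Deviations of same-numbered mice correlated at 0.0742, 0.109 and 0.0433, and each mouse correlated best with its own number, a hint from the data that the labels do not state. With the mean of all probe sets 8 calls were lost, Cacna1c, Clcn7, Kcnc1, Kcnd1, Kcnh3, Trpc1, Trpc4ap and Trpv2, and the cause was not tested. Trpv2 has 1 probe set, so its own values were the same there and its loss reflects no disagreement of probe sets. Depth on these arrays is signal over background, and 11 of the 65 tested channel genes had 1 group mean below the filter.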

Other observations

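Of 18 pairs of channel genes that are direct neighbours in the genome, both members were tested in 3, so the other 15 pairs bear on nothing here. Kcna5 fell while Kcna1 beside it was not called, and Kcnj15 rose while Kcnj6 beside it was not called. Whether the differences within a pair differ from each other was not tested. Scn2b and Scn4b, also adjacent, were both uncalled.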
